A study of Mus musculus with 12 samples.

Results

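The subject is the genes whose response to oxidized low-density lipoprotein (oxLDL) differed between CD36-deficient and wild-type macrophages. For every gene, the change with oxLDL in CD36-deficient macrophages was set against the change in wild-type macrophages. All 12 RNA-seq libraries of the study entered the comparison, and 16281 of the 43346 genes in the count table had enough reads to be tested. The cells were peritoneal macrophages of C57BL/6 mice, grown in RPMI1640 medium with fetal bovine serum. They fell into 4 groups of 3 libraries each: CD36 KO cells given 20 µg/ml oxLDL for 8 h, CD36 KO cells in control medium, wild-type (WT) cells given the same oxLDL, and WT cells in control medium. Whether the libraries of a group came from separate animals or cultures is not in the labels, and neither is the part of Cd36 that was removed. All p-values therefore rest on the spread among these libraries, and that spread may be technical.

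CD36 is a class B scavenger receptor. On macrophages it binds and takes up oxidized lipoproteins and long-chain fatty acids, and it signals through Src-family kinases such as Lyn and together with Toll-like receptors. Lipid taken up this way feeds foam cell formation and supplies ligands for the nuclear receptors PPAR-gamma and LXR. Macrophages also carry other scavenger receptors that bind oxLDL, among them the class A receptor Msr1.

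Library totals ran from 35257762 to 65135955 counts, and levels are given as CPM, counts scaled to a common library total with TMM factors. Cd36 reads were lower in all 6 CD36 KO libraries than in any WT library: Cd36 had 203, 204 and 190.3 CPM in CD36 KO cells with oxLDL and 478, 455 and 511 CPM in CD36 KO control cells. Cd36 in WT cells was at 1899, 3578 and 3825 CPM with oxLDL and 5265, 5346 and 5475 CPM in control medium. Its own response did not pass the interaction test with 12 libraries, at -0.48 ± 0.29 on the log2 scale (here and below, ± gives the standard error of a log2 value; edgeR adjusted p = 0.661), whereas without WT oxLDL replicate 1 it was -0.75 (edgeR adjusted p = 0.00135). That library stood apart: its log2 values correlated with those of its group at r = 0.952 to 0.953, while every other pair of libraries within a group correlated at 0.9885 or more. It also had a smaller excess of long over short genes, 1.48 on the log2 scale against 2.31 to 2.95 in the other 11 libraries. CD36 KO oxLDL replicate 3 stood apart to a lesser degree. Its correlations with its group were 0.9885 and 0.9892, and its excess was the 2.31, where the next smallest was 2.675. Fitted sample quality weights were 0.0273 for WT oxLDL replicate 1, 0.2147 for CD36 KO oxLDL replicate 3 and 0.8486 or more for the rest. Interactions below are given with and without WT oxLDL replicate 1.

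The cell type label was checked against marker genes. Summed macrophage markers (7 of 8 symbols in the table, all tested) ran from 15300 to 19700 CPM in CD36 KO cells with oxLDL, 15000 to 16700 in CD36 KO control cells, 19300 to 35100 in WT cells with oxLDL and 15200 to 15600 in WT control cells. Mesothelial or fibroblast markers, 7 of 7 tested, summed to 1680 to 2070, 1810 to 3170, 613 to 835 and 709 to 1190 CPM in the same 4 groups, so both CD36 KO groups were above both WT groups. B cell markers, 7 of 7 tested, likewise summed to 166 to 223 and 138 to 400 CPM in the CD36 KO groups with oxLDL and in control medium, against 19.0 to 36.1 and 19.8 to 50.9 CPM in the WT groups. T cell, mast cell, eosinophil and dendritic cell markers each summed to under 20 CPM in every library, with Epx at 0. No mesothelial, fibroblast or B cell marker was called in the interaction with either 12 or 11 libraries; the part of these cells in the results was not tested. In bulk RNA, fewer cells of a type and less RNA per cell cannot be told apart.

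The interaction is the log2 response of CD36 KO cells minus the log2 response of WT cells, so a positive value means a more positive response without CD36. A gene was called when its Benjamini-Hochberg adjusted p from edgeR's quasi-likelihood test was under 0.05. By this rule 109 of 16281 genes (0.669%) were called, 38 positive (0.233%) and 71 negative (0.436%), while 1680 had an unadjusted p under 0.05. The median interaction was 1.54 among positive and -1.54 among negative calls, set against -0.08 over all tested genes. The interaction was at least 1 in size, a factor of at least 2 between the responses, in 29 positive and 56 negative genes. Without WT oxLDL replicate 1, 1158 of 16636 genes (6.96%) were called, 259 positive (1.56%) and 899 negative (5.4%), and these held all 109 with the same sign. Upper-quartile scaling gave a more even split, 46 positive and 48 negative. Between the genotypes, the libraries with oxLDL did not overlap for 32.5% of all tested genes, and those in control medium for 55.9%. Among the 109 called genes, chosen on the same libraries, the counts were 103 and 84. Statements below that the genotypes did not overlap within a medium stand beside these shares.

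With 12 libraries, most called genes that oxLDL moved in both genotypes moved less without CD36. The same split over all genes that moved in both is not given here. The split can therefore not be called particular to the called genes. oxLDL changed 27.4% of tested genes in CD36 KO cells (11.6% rose and 15.7% fell) and 36.7% in WT cells (18.1% rose and 18.6% fell) at the same threshold. With upper-quartile scaling the share of rises among the WT calls was 37.1%, against 49.3% with the main scaling. Among genes that passed the response test in both genotypes, 1655 rose in both, 1973 fell in both and 8 went in opposite directions (2875, 3353 and 60 without WT oxLDL replicate 1). Genes that passed in 1 genotype only are not in these counts. Of the 45 called genes that rose in both genotypes, 42 rose more in WT cells and 3 rose more in CD36 KO cells. Of the 25 called genes that fell in both, 20 fell more in WT cells and 5 fell more in CD36 KO cells. With upper-quartile scaling the corresponding counts were 29 and 3, and 27 and 3. Without WT oxLDL replicate 1, where 21.0% of tested genes rose and 29.0% fell in CD36 KO cells, and 24.3% rose and 24.4% fell in WT cells, they were 468 and 26 for genes that rose, and 139 and 74 for genes that fell. The other 39 called genes passed the response test in 1 genotype only or went in opposite directions.

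**Figure D1:**
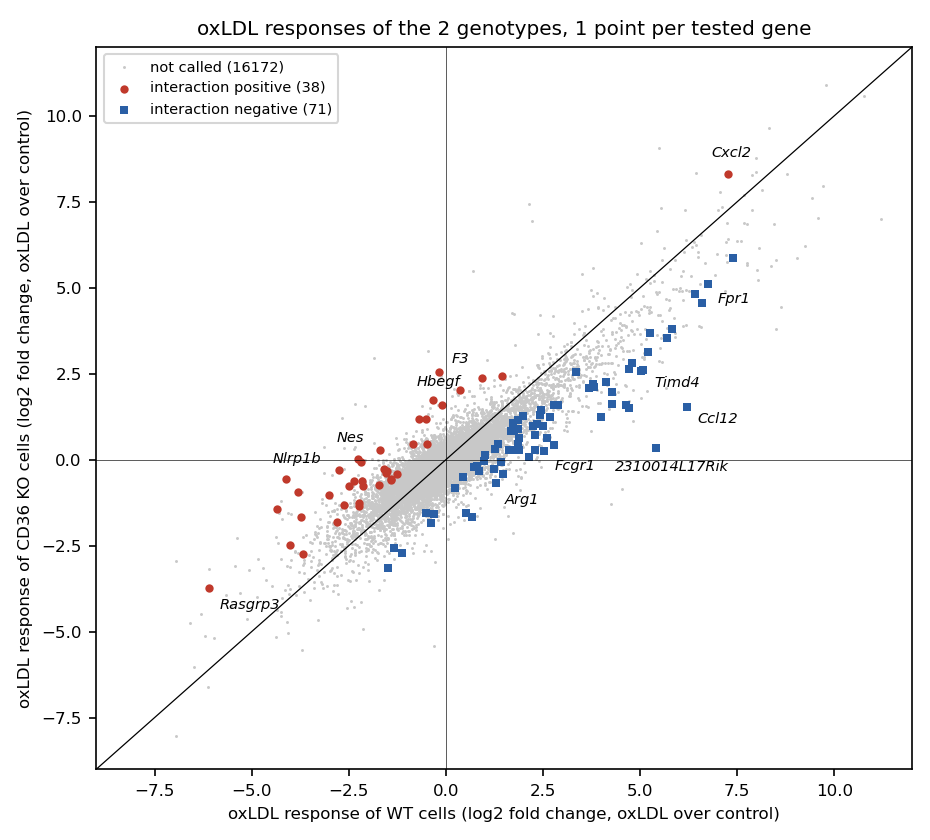
Each point is a tested gene, with its oxLDL response (log2 fold change, oxLDL over control) in WT cells on the x axis and in CD36 KO cells on the y axis; the diagonal marks equal responses. The 38 genes with a positive interaction lie above the diagonal and the 71 with a negative one below it, most of them between the diagonal and the line of no response in CD36 KO cells.

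Of the 38 positive genes, 5 passed the test for a rise in CD36 KO cells and not in WT cells: Hbegf, F3, Lrrc32, Angptl4 and Ttll11. Hbegf (chr18:36504927-36515805 on GRCm38), which encodes the EGF receptor ligand heparin-binding EGF-like growth factor, had 20.3, 23.6 and 25.2 CPM in CD36 KO cells with oxLDL and 6.67, 7.12 and 7.14 CPM in CD36 KO control cells. Hbegf in WT cells was at 5.1, 5 and 6.19 CPM with oxLDL and 7.17, 7.02 and 6.31 CPM in control medium. The 3 CD36 KO libraries with oxLDL were above all 9 others; the control groups overlapped each other, and the WT libraries with oxLDL lay just below both. The Hbegf interaction was 2.06 ± 0.19 (edgeR adjusted p = 0.00106; 2.01 without WT oxLDL replicate 1), from a response of 1.72 in CD36 KO cells (edgeR adjusted p = 2.6e-06) and -0.33 in WT cells (edgeR adjusted p = 0.0759).

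F3 (chr3:121723537-121735048) encodes tissue factor, the membrane protein that starts the extrinsic coagulation cascade. It had 24.2, 29.4 and 32.3 CPM in CD36 KO cells with oxLDL and 4.72, 5.06 and 4.79 CPM in CD36 KO control cells. F3 in WT cells was at 3.86, 6.19 and 7.85 CPM with oxLDL and 7.26, 6.55 and 6.61 CPM in control medium. Again the CD36 KO libraries with oxLDL stood above all others, and the WT libraries with oxLDL spread around the WT control level. The F3 interaction was 2.74 ± 0.31 (edgeR adjusted p = 0.00261; 2.51 without WT oxLDL replicate 1). Angptl4, a secreted inhibitor of lipoprotein lipase and a PPAR target, had 12.4, 12.3 and 12.3 CPM in CD36 KO cells with oxLDL and 3.01, 3.19 and 2.91 CPM in CD36 KO control cells. Angptl4 in WT cells was at 6.18, 3.36 and 4.5 CPM with oxLDL and 3.84, 3.54 and 3.4 CPM in control medium, so that the 3 CD36 KO libraries with oxLDL were close together and above the rest. Its interaction was 1.65 ± 0.27 (edgeR adjusted p = 0.0191; 1.89 without WT oxLDL replicate 1), and the call held in 4 of the 12 fits that each left out 1 library. Lrrc32 encodes GARP, which holds latent TGF-beta at the cell surface; its interaction was 1.68 ± 0.24 (edgeR adjusted p = 0.00773; 1.80 without WT oxLDL replicate 1), with 8.93 to 12.3 CPM in CD36 KO cells with oxLDL and 3.31 to 6.71 CPM in the other 9 libraries. Ttll11, a tubulin polyglutamylase that completes this count of 5, had an interaction of 1.70 ± 0.33 (edgeR adjusted p = 0.045; 1.85 without WT oxLDL replicate 1), called in 1 of the 12 fits. Its WT response, -0.51 with 12 libraries (edgeR adjusted p = 0.115), passed as a fall without WT oxLDL replicate 1 (-0.66, edgeR adjusted p = 0.0448).

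The window from 250 bases before to 50 bases after the F3 start was compared with that of Cxcl2, the called inflammatory mediator described further on, and with those of a pair of genes on the negative side, because each holds a match to a short motif. The sequences are RefSeq windows on GRCm38.p6, printed 5′ to 3′ on the strand of the gene, with matches in capitals.
F3 (chr3:121723287-121723586, plus strand; AP-1 letters TGANTCA, 2 matches): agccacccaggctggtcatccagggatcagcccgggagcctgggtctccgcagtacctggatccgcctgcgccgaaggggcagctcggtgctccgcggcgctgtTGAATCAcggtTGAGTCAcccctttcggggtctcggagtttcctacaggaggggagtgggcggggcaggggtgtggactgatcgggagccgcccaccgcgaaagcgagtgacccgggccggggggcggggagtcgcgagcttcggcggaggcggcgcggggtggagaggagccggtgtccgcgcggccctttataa
Cxcl2 (chr5:90903649-90903948, plus strand; NF-kB letters GGGAA followed by TTTCC): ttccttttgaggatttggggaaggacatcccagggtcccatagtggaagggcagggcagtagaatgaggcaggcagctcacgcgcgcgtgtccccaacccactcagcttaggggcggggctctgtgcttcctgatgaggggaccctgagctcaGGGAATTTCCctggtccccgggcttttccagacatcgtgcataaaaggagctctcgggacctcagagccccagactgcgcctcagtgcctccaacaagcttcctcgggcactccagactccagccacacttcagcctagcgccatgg
Tgfbi (chr13:56609336-56609635, plus strand; ISRE core, GAAA, any 2 bases, GAAA): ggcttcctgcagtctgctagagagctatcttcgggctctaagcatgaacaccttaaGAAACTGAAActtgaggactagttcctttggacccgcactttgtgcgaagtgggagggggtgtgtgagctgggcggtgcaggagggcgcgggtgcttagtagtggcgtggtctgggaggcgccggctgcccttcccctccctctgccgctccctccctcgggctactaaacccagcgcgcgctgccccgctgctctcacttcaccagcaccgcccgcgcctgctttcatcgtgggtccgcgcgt
I830077J02Rik (chr3:105932615-105932914, minus strand; ISRE core, GAAA, any 2 bases, GAAA): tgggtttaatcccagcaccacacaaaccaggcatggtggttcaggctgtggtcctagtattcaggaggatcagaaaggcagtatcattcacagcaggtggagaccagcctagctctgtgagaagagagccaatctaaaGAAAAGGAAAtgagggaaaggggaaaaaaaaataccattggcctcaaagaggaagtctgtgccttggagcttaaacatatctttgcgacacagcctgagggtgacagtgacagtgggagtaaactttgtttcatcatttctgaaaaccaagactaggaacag
Both strands were searched, and the AP-1 letters can overlap the antioxidant response core. Windows were given for 24 of the 38 positive and 56 of the 71 negative genes. AP-1 letters were in the window of 12.5% of positive genes, 7.14% of negative genes and 6.63% of the 10411 tested genes with a window. NF-kB letters (GGGAC or GGGAA, followed by TTTCC) were in 1 positive gene, Cxcl2, in 0% of negative genes and in 0.394% of all. ISRE core letters were in 8.33%, 10.7% and 3.89%, the antioxidant response core TGACNNNGC in 20.8%, 17.9% and 17%, the cyclic AMP element TGACGTCA in 4.17%, 5.36% and 3.49%, and the EGR letters GCGTGGGCG or GCGGGGGCG in 0%, 10.7% and 7.44%. A match describes the letters of the window and not a bound site.

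Of 15 tested EGF receptor ligands and other growth factors, 3 were called, all positive (Hbegf, Pdgfb and Vegfa), and the list's median interaction was 0.55 against -0.08 over all genes. Without WT oxLDL replicate 1, 4 were called, all positive. The list counts here and below stand beside the shares over all genes. With 12 libraries these were 0.233% positive and 0.436% negative, and with 11 libraries 1.56% and 5.4%. Pdgfb, the B chain of platelet-derived growth factor, had 22.9, 27.5 and 28.5 CPM in CD36 KO cells with oxLDL and 19.2, 19.9 and 18.6 CPM in CD36 KO control cells. Pdgfb in WT cells was at 18.8, 17.6 and 16.8 CPM with oxLDL and 31.1, 31.7 and 32.6 CPM in control medium. The CD36 KO libraries were higher with oxLDL and the WT libraries were lower with it, with no overlap between oxLDL and control in either genotype. The Pdgfb interaction was 1.29 ± 0.17 (edgeR adjusted p = 0.0047; 1.32 without WT oxLDL replicate 1), from responses of 0.45 in CD36 KO cells (edgeR adjusted p = 0.0134) and -0.84 in WT cells (edgeR adjusted p = 0.000165). Vegfa, the main angiogenic growth factor, fell in both genotypes: it had 47.6, 48.6 and 43.5 CPM in CD36 KO cells with oxLDL and 100.2, 66.3 and 70.3 CPM in CD36 KO control cells. Vegfa in WT cells was at 16.8, 23.6 and 18.1 CPM with oxLDL and 81.5, 90.8 and 87.5 CPM in control medium. Its interaction was 1.39 ± 0.25 (edgeR adjusted p = 0.0313; 1.27 without WT oxLDL replicate 1), called in 3 of the 12 fits that left out 1 library. The summed mesothelial and fibroblast markers given above were higher in CD36 KO cells in both media, and their part in these values was not tested.

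Coagulation and fibrinolysis held 2 positive calls of 16 tested genes, F3 and Plau, and no negative one. Without WT oxLDL replicate 1 there were 3 positive and 2 negative, against 1.56% and 5.4% of all genes. Plau, the urokinase that activates plasminogen, had 152, 174 and 182 CPM in CD36 KO cells with oxLDL and 239.9, 272 and 278 CPM in CD36 KO control cells. Plau in WT cells was at 109, 115 and 124 CPM with oxLDL and 497, 521 and 533 CPM in control medium. The WT control libraries were the highest and the WT libraries with oxLDL the lowest, and no groups overlapped. The Plau interaction was 1.52 ± 0.16 (edgeR adjusted p = 0.00212; 1.47 without WT oxLDL replicate 1), from -0.63 in CD36 KO cells and -2.16 in WT cells.

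Another 4 called genes went in opposite directions: Rgs16 and Plk2 with the same sign as Pdgfb, and Arg1 and Sfxn5 with the other sign. Arg1 (chr10:24915221-24927484) encodes arginase, the enzyme that splits arginine into ornithine and urea and a marker of alternative activation in mouse macrophages. It had 52.7, 67.4 and 72.3 CPM in CD36 KO cells with oxLDL and 94.2, 107 and 107 CPM in CD36 KO control cells. Arg1 in WT cells was at 303, 225 and 194 CPM with oxLDL and 102, 101 and 91.5 CPM in control medium. The control groups overlapped at 91.5 to 107 CPM, the CD36 KO libraries with oxLDL were below them and the WT libraries with oxLDL above. The Arg1 interaction was -1.97 ± 0.24 (edgeR adjusted p = 0.00452; -1.79 without WT oxLDL replicate 1), and WT oxLDL replicate 1 was the highest of its group. Rgs16, which shortens signalling by G protein-coupled receptors, had 7.08 to 8.36 CPM in CD36 KO cells with oxLDL against 2.65 to 4.20 in CD36 KO control cells, and 0.805 to 1.24 CPM in WT cells with oxLDL against 1.26 to 1.97 in WT control cells. Its interaction was 1.88 ± 0.32 (edgeR adjusted p = 0.0249; 1.75 without WT oxLDL replicate 1). Plk2, a polo-like kinase, had an interaction of 0.94 ± 0.16 (edgeR adjusted p = 0.0266; 0.83 without WT oxLDL replicate 1), and the mitochondrial carrier Sfxn5 of -0.95 ± 0.18 (edgeR adjusted p = 0.0405; -0.89 without WT oxLDL replicate 1). The WT fall of Rgs16 without WT oxLDL replicate 1 did not pass the test (-0.56, edgeR adjusted p = 0.0798), while the WT responses of Pdgfb, Plk2, Arg1 and Sfxn5 still did. The interaction calls of Rgs16, Plk2 and Sfxn5 held in 4, 4 and 2 of the 12 fits.

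**Figure D2:**
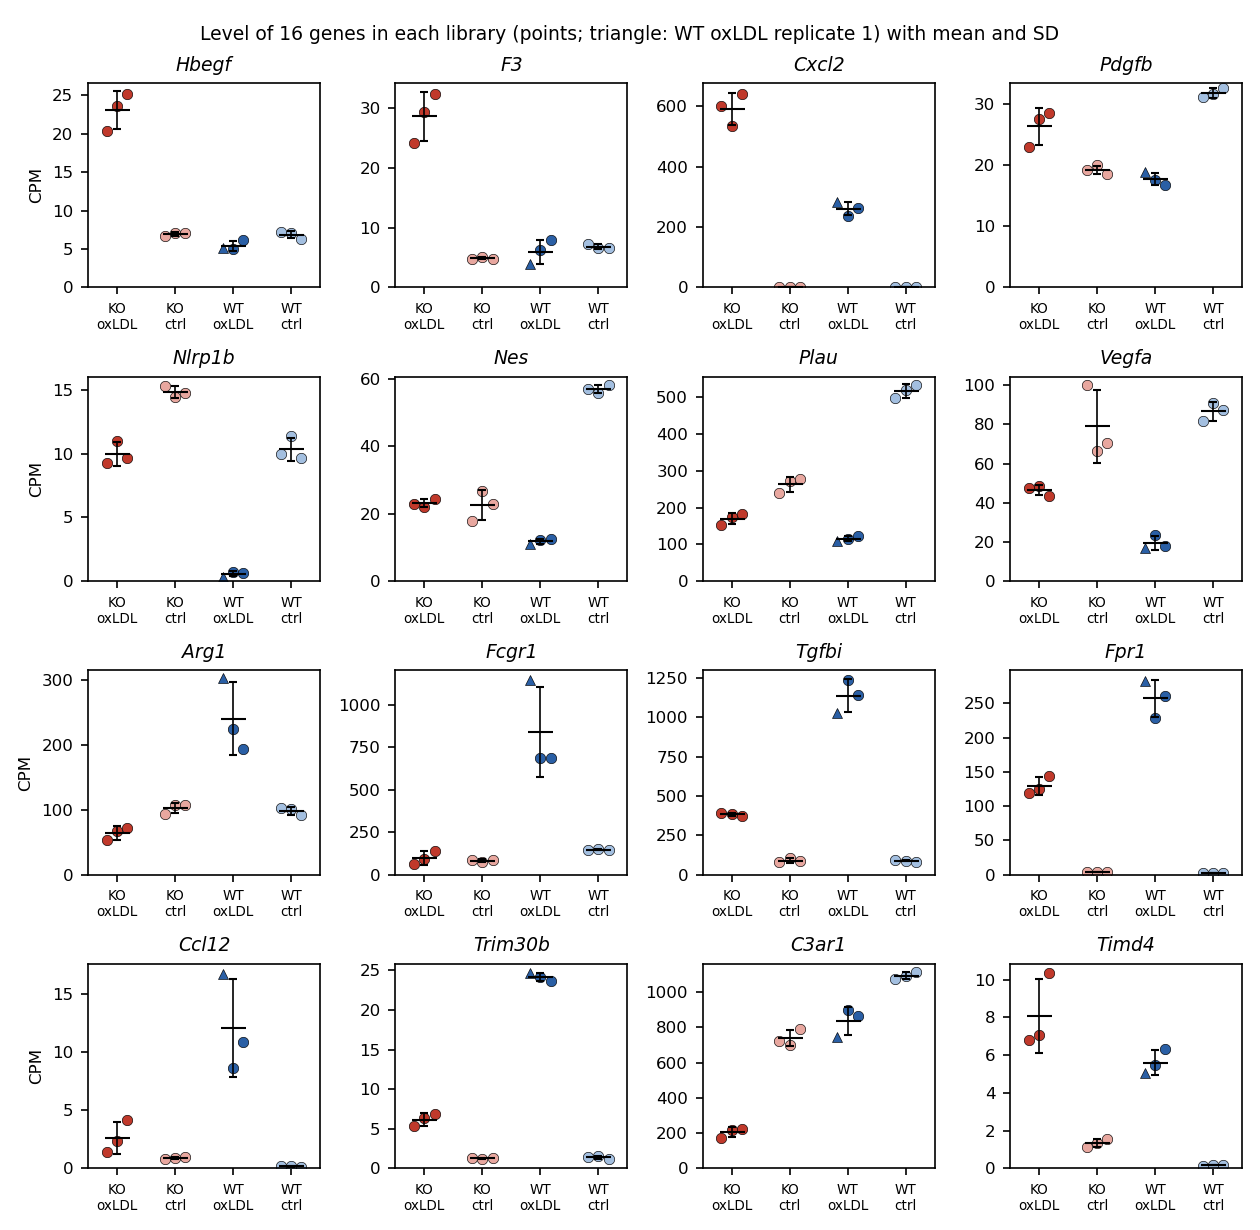
Level of 16 genes in CPM in each of the 12 libraries, by group, with the mean (bar) and SD (whiskers) of 3 libraries and WT oxLDL replicate 1 as a triangle. F3 and Hbegf are high in CD36 KO cells with oxLDL alone, Nlrp1b is low in WT cells with oxLDL alone, and Fcgr1, Tgfbi and Trim30b are highest in WT cells with oxLDL.

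Inflammatory mediators driven by NF-kB had a list median response of 6.69 in CD36 KO cells and 6.24 in WT cells on the log2 scale. Of 24 tested, 1 was called in the interaction, Cxcl2, a chemokine that attracts neutrophils. Without WT oxLDL replicate 1, 3 were called positive and 2 negative, against 1.56% and 5.4% of all genes. Cxcl2 had 601, 536 and 641 CPM in CD36 KO cells with oxLDL and 1.74, 2.09 and 1.74 CPM in CD36 KO control cells. Cxcl2 in WT cells was at 283, 237 and 264 CPM with oxLDL and 1.53, 1.85 and 1.7 CPM in control medium. All CD36 KO libraries with oxLDL were above the WT libraries with oxLDL, and the control groups overlapped. The Cxcl2 interaction was 1.05 ± 0.19 (edgeR adjusted p = 0.0313; 1.09 without WT oxLDL replicate 1); the 12-library call held in 1 of the 12 fits that left out 1 library, that without WT oxLDL replicate 1. Tnf and Il1b, named after their values were seen, had interactions of -0.02 ± 0.27 (edgeR adjusted p = 0.993; 0.25 without WT oxLDL replicate 1) and -0.20 ± 0.66 (edgeR adjusted p = 0.953; -0.04 without WT oxLDL replicate 1).

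The largest group on the positive side, 20 of 38, fell in both genotypes and fell further in WT cells, and another 7 passed the test for a fall in WT cells and not in CD36 KO cells. Nlrp1b (chr11:71153102-71230733), a sensor that assembles the inflammasome, had 9.24, 11 and 9.63 CPM in CD36 KO cells with oxLDL and 15.3, 14.4 and 14.8 CPM in CD36 KO control cells. Nlrp1b in WT cells was at 0.336, 0.711 and 0.663 CPM with oxLDL and 9.99, 11.4 and 9.64 CPM in control medium. The WT libraries with oxLDL were all under 1 CPM and far below the other 9. Its interaction, 3.55 ± 0.28 (edgeR adjusted p = 0.000756; 3.31 without WT oxLDL replicate 1), came from responses of -0.58 in CD36 KO cells and -4.13 in WT cells. Nlrp1b lies beside the related gene Nlrp1a and a pseudogene copy, so reads may be split between them and the value is uncertain; Nlrp1a itself had an interaction of -0.09 ± 0.39 (edgeR adjusted p = 0.964; -0.35 without WT oxLDL replicate 1). The pseudogene Nlrp1c-ps, at 2.02 CPM or less in every library, had one of 2.75 ± 0.80 (edgeR adjusted p = 0.187; 2.44 without WT oxLDL replicate 1), with responses of -1.55 in CD36 KO cells and -4.30 in WT cells. Nlrp1b was the only one of 15 inflammasome genes called with 12 libraries. Without WT oxLDL replicate 1, 1 was positive and 3 were negative, against 1.56% and 5.4% of all genes.

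Nes encodes the intermediate filament protein nestin. It had 22.8, 22 and 24.3 CPM in CD36 KO cells with oxLDL and 17.9, 26.8 and 22.8 CPM in CD36 KO control cells. Nes in WT cells was at 11, 12.1 and 12.3 CPM with oxLDL and 56.8, 55.8 and 58.2 CPM in control medium. Its CD36 KO groups overlapped each other and lay between the WT groups, which stood apart on either side. The Nes interaction was 2.30 ± 0.21 (edgeR adjusted p = 0.00106; 2.24 without WT oxLDL replicate 1). Hmga2, an architectural chromatin protein, had 15.3 to 16.9 CPM in CD36 KO cells with oxLDL against 11.1 to 15.6 in CD36 KO control cells, and 2.28 to 3.18 CPM in WT cells with oxLDL against 8.18 to 9.48 in WT control cells; its interaction was 1.97 ± 0.23 (edgeR adjusted p = 0.00312; 1.84 without WT oxLDL replicate 1). Il1rl1, the receptor for interleukin-33, had 1.73 to 2.08 CPM in CD36 KO cells with oxLDL against 1.67 to 2.28 in CD36 KO control cells, and 0.302 to 0.663 CPM in WT cells with oxLDL against 2.04 to 2.22 in WT control cells. Only the WT libraries with oxLDL stood apart, and the Il1rl1 interaction was 2.09 ± 0.33 (edgeR adjusted p = 0.0162; 1.89 without WT oxLDL replicate 1), called in 6 of the 12 fits. Rasgrp3, an exchange factor that activates Ras, had 0.648 to 0.650 CPM in CD36 KO cells with oxLDL against 7.70 to 9.79 in CD36 KO control cells, and 0.134 to 0.359 CPM in WT cells with oxLDL against 15.5 to 17.8 in WT control cells. The Rasgrp3 interaction was 2.35 ± 0.32 (edgeR adjusted p = 0.0059; 2.13 without WT oxLDL replicate 1), with a fall in both genotypes and few reads in WT cells with oxLDL.

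Other positive genes with a steeper fall in WT cells were Smpd3, a neutral sphingomyelinase (2.06 ± 0.26), Galnt9, an enzyme of O-glycosylation (2.93 ± 0.39), Chst3, a chondroitin sulfotransferase (2.0 ± 0.28), Nxpe4 (2.48 ± 0.27) and Fam198b (1.55 ± 0.18). Their interactions without WT oxLDL replicate 1 were 1.89 for Smpd3, 3.22 for Galnt9, 2.04 for Chst3, 2.32 for Nxpe4 and 1.47 for Fam198b, and all 5 were called in all 12 fits that left out 1 library. The fall of Nxpe4 passed the test in WT cells alone. Irf4, a transcription factor of alternative activation, was called positive at 1.75 ± 0.29 (edgeR adjusted p = 0.0209; 1.53 without WT oxLDL replicate 1), and Arg1 and Il4ra of the same list were called negative; the calls of Irf4 and Il4ra each held in 3 of the 12 fits. In all, 1 positive and 2 negative of 16 tested genes of alternative activation were called with 12 libraries, and 1 and 4 without WT oxLDL replicate 1. Summed markers of small peritoneal macrophages, Irf4 the 1 called of 4, were 110 to 225 CPM in CD36 KO cells with oxLDL against 86.3 to 122 in CD36 KO control cells, and 256 to 602 CPM in WT cells with oxLDL against 145 to 168 in WT control cells. Their part in the Irf4 result was not tested. The 3 positive genes that rose in both genotypes and rose more in CD36 KO cells were Cxcl2, Layn, a hyaluronan receptor (1.47 ± 0.16, and 1.39 without WT oxLDL replicate 1), and Ptgir, the prostacyclin receptor (0.98 ± 0.16, and 0.99). Ptgir, called in 4 of the 12 fits, was named because it completes this count of 3.

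On the negative side, 42 of 71 genes rose in both genotypes and rose less in CD36 KO cells, and 18 passed the test for a rise in WT cells and not in CD36 KO cells. Tgfbi (chr13:56609523-56639562), a secreted matrix protein inducible by TGF-beta, had 391, 385 and 373 CPM in CD36 KO cells with oxLDL and 77.5, 104 and 87.1 CPM in CD36 KO control cells. Tgfbi in WT cells was at 1026, 1235 and 1143 CPM with oxLDL and 90.9, 89.4 and 83.6 CPM in control medium. The control groups overlapped and the WT libraries with oxLDL were all above the CD36 KO libraries with oxLDL. The Tgfbi interaction was -1.59 ± 0.18 (edgeR adjusted p = 0.00261; -1.67 without WT oxLDL replicate 1), with responses of 2.10 in CD36 KO cells and 3.69 in WT cells. Fpr1, the formyl peptide receptor of phagocytes, had 119, 125 and 144 CPM in CD36 KO cells with oxLDL and 3.45, 4.12 and 3.67 CPM in CD36 KO control cells. Fpr1 in WT cells was at 282, 228 and 261 CPM with oxLDL and 2.35, 2.69 and 2.17 CPM in control medium. It rose in both genotypes and the groups did not overlap within either medium; its interaction was -1.63 ± 0.20 (edgeR adjusted p = 0.00363; -1.57 without WT oxLDL replicate 1). Neutrophil markers, 4 of 7 tested, none called and none at 0 in all libraries, summed to 147 to 159 CPM in CD36 KO cells with oxLDL against 49.3 to 65.7 in CD36 KO control cells, and 266 to 333 CPM in WT cells with oxLDL against 85.4 to 93.4 in WT control cells. Their part in the Fpr1 values was not tested.

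Transporters and lipid genes were among the genes that rose less in CD36 KO cells. Slco3a1, an organic anion transporter, had an interaction of -1.96 ± 0.20 (edgeR adjusted p = 0.00176; -1.96 without WT oxLDL replicate 1), and the sodium-dicarboxylate carrier Slc13a3 of -2.08 ± 0.24 (edgeR adjusted p = 0.00317; -2.06 without WT oxLDL replicate 1). Lipg, endothelial lipase, had 1.18 to 1.77 CPM in CD36 KO cells with oxLDL against 0.395 to 0.540 in CD36 KO control cells, and 9.20 to 14.8 CPM in WT cells with oxLDL against 0.615 to 0.648 in WT control cells. Its interaction was -2.67 ± 0.33 (edgeR adjusted p = 0.00452; -2.86 without WT oxLDL replicate 1). Cav1, the coat protein of caveolae, had 90.1, 92.3 and 94.5 CPM in CD36 KO cells with oxLDL and 28.2, 53.9 and 36.2 CPM in CD36 KO control cells. Cav1 in WT cells was at 195, 259.6 and 271 CPM with oxLDL and 19.6, 14.3 and 11.9 CPM in control medium, so that the CD36 KO libraries were below the WT libraries with oxLDL and above them in control medium. The Cav1 interaction was -2.76 ± 0.35 (edgeR adjusted p = 0.00454; -2.90 without WT oxLDL replicate 1). Of 18 tested PPAR targets and lipid storage genes, Angptl4 was called positive and Dgat2, an enzyme of triglyceride synthesis, negative at -2.30 ± 0.32 (edgeR adjusted p = 0.00773; -2.13 without WT oxLDL replicate 1); 2 were positive and 3 negative without WT oxLDL replicate 1. Dgat2 had few reads in WT control cells, at 0.1725 to 0.3394 CPM.

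Signalling genes were called as well. The Src-family kinases Lyn and Src, which act downstream of CD36, were the 2 called of 17 tested CD36 signalling partners. Lyn had 225, 243 and 243 CPM in CD36 KO cells with oxLDL and 129.5, 133 and 136 CPM in CD36 KO control cells. Lyn in WT cells was at 488, 455 and 489 CPM with oxLDL and 149.9, 151 and 150.4 CPM in control medium. It rose in both genotypes, and the WT libraries with oxLDL were above all others. The Lyn interaction was -0.83 ± 0.13 (edgeR adjusted p = 0.0175; -0.83 without WT oxLDL replicate 1) and that of Src was -0.79 ± 0.14 (edgeR adjusted p = 0.0313; -0.73 without WT oxLDL replicate 1), called in 4 and 2 of the 12 fits; the 2 of 17 stand beside 0.436% of all genes called negative. In the fit without WT oxLDL replicate 1, 6 of 17 partners were called, all negative, against 5.4% of all genes. Dusp1, a phosphatase that turns off MAP kinases, had 36, 33.2 and 35.8 CPM in CD36 KO cells with oxLDL and 29.2, 27.6 and 28.7 CPM in CD36 KO control cells. Dusp1 in WT cells was at 77.3, 74.1 and 65.6 CPM with oxLDL and 30.0, 31.4 and 29.5 CPM in control medium. The CD36 KO libraries and the WT control libraries lay between 27.6 and 36.0 CPM, and the WT libraries with oxLDL were at 65.6 to 77.3 CPM. The Dusp1 interaction was -0.96 ± 0.15 (edgeR adjusted p = 0.0169; -0.92 without WT oxLDL replicate 1), called in 4 of the 12 fits. Dusp1 was the only called gene of 14 tested phosphatases and feedback regulators of the ERK pathway, whose median interaction was 0.31; without WT oxLDL replicate 1 that median was 0.03, and 1 gene was positive and 3 were negative.

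Immune receptors and chemokines on the negative side included Fcgr1, the high-affinity IgG receptor, and Ccl12, a ligand of the chemokine receptor Ccr2. Fcgr1 had 63.8, 89.7 and 141 CPM in CD36 KO cells with oxLDL and 86.9, 74.9 and 87.7 CPM in CD36 KO control cells. Fcgr1 in WT cells was at 1150, 685 and 688 CPM with oxLDL and 144, 150.2 and 146 CPM in control medium. The WT libraries with oxLDL were above all others, and WT oxLDL replicate 1 was the highest by far. The Fcgr1 interaction was -2.28 ± 0.39 (edgeR adjusted p = 0.0226; -2.0 without WT oxLDL replicate 1), called in 4 of the 12 fits, and it was the 1 called gene of 7 tested macrophage markers (2 without that library, both negative). Ccl12 had 1.38, 2.32 and 4.12 CPM in CD36 KO cells with oxLDL and 0.822, 0.863 and 0.977 CPM in CD36 KO control cells. Ccl12 in WT cells was at 16.8, 8.62 and 10.9 CPM with oxLDL and 0.17, 0.162 and 0.148 CPM in control medium, on few reads in WT control cells. Its interaction of -4.66 ± 0.60 (edgeR adjusted p = 0.00483; -4.37 without WT oxLDL replicate 1) was called in all 12 fits that left out 1 library, and it was the 1 called gene of 16 tested CC chemokines and chemokine receptors (4 without WT oxLDL replicate 1, all negative). Trim30b, a member of a family of TRIM proteins with near copies beside it, rose less in CD36 KO cells, with 5.30 to 6.86 CPM in CD36 KO cells with oxLDL against 1.22 to 1.32 in CD36 KO control cells, and 23.6 to 24.6 CPM in WT cells with oxLDL against 1.21 to 1.5 in WT control cells. Its interaction was -1.87 ± 0.20 (edgeR adjusted p = 0.00212; -1.87 without WT oxLDL replicate 1).

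The inducible heat shock proteins Hspa1a and Hspa1b, near-identical neighbours on chromosome 17 between which reads may be split, were both negative. The interaction was -1.60 ± 0.29 (edgeR adjusted p = 0.0331; -1.37 without WT oxLDL replicate 1) for Hspa1a and -1.70 ± 0.27 (edgeR adjusted p = 0.0169; -1.73 without WT oxLDL replicate 1) for Hspa1b, called in 3 and 6 of the 12 fits. They were the 2 called genes of 13 tested heat shock chaperones (3 without WT oxLDL replicate 1, all negative). Similar care applies to Cmtr1 and Gm28043, which share 3390 exonic bases in the annotation and had almost the same CPM in every library; they count as 2 of the 71. Of the 108 called genes with a span in the annotation, 5 shared more than 10% of their exonic bases with another tested gene.

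Genes that passed the response test in WT cells alone included I830077J02Rik, whose window is printed above. It had 3.37, 3.56 and 4.19 CPM in CD36 KO cells with oxLDL and 3.85, 3.38 and 3.35 CPM in CD36 KO control cells. I830077J02Rik in WT cells was at 11.1, 11.2 and 12.2 CPM with oxLDL and 2.61, 2.71 and 2.46 CPM in control medium. All 3 WT libraries with oxLDL were above the 9 others, and its interaction was -2.07 ± 0.19 (edgeR adjusted p = 0.00106; -2.11 without WT oxLDL replicate 1). The largest interaction among all called genes, -5.09 ± 0.54 (edgeR adjusted p = 0.00212; -4.95 without WT oxLDL replicate 1), belonged to 2310014L17Rik, at 4.41 to 6.08 CPM in WT cells with oxLDL and, on few reads, 0.0636 to 0.453 CPM in the other 9 libraries. Gm14085, at -2.34 ± 0.36 (edgeR adjusted p = 0.015; -1.98 without WT oxLDL replicate 1), was called in 6 of the 12 fits. Pou2f2, the transcription factor Oct-2, and Clic5, a chloride intracellular channel protein, rose in both genotypes and less so in CD36 KO cells, with interactions of -1.19 ± 0.15 (edgeR adjusted p = 0.00483; -1.13 without WT oxLDL replicate 1) and -2.47 ± 0.44 (edgeR adjusted p = 0.0313; -2.72 without WT oxLDL replicate 1); the call of Clic5 held in 2 of the 12 fits.

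A further 5 negative genes fell in both genotypes and fell more in CD36 KO cells (C3ar1, Nxpe5, Apobec1, Padi4 and Dppa3), and 4 passed the test for a fall in CD36 KO cells and not in WT cells (Tmem104, Gm5150, Ifitm6 and Sirpb1a). C3ar1 (chr6:122847138-122856161), the receptor for the complement fragment C3a, had 172, 217 and 225 CPM in CD36 KO cells with oxLDL and 724, 703 and 789.9 CPM in CD36 KO control cells. C3ar1 in WT cells was at 748, 899 and 866 CPM with oxLDL and 1078, 1092 and 1114 CPM in control medium. The CD36 KO libraries with oxLDL were the lowest and overlapped no other group, while the WT fall was small. The C3ar1 interaction was -1.47 ± 0.18 (edgeR adjusted p = 0.004; -1.55 without WT oxLDL replicate 1), from -1.85 in CD36 KO cells and -0.39 in WT cells. Nxpe5 had 1.71 to 2.29 CPM in CD36 KO cells with oxLDL against 17.5 to 19.7 in CD36 KO control cells, and 7.07 to 9.16 CPM in WT cells with oxLDL against 22.9 to 23.9 in WT control cells; its interaction was -1.67 ± 0.21 (edgeR adjusted p = 0.004; -1.61 without WT oxLDL replicate 1). Apobec1, a cytidine deaminase that edits RNA, had an interaction of -1.03 ± 0.15 (edgeR adjusted p = 0.0104; -0.96 without WT oxLDL replicate 1), and Ifitm6 one of -2.35 ± 0.39 (edgeR adjusted p = 0.0209; -2.02 without WT oxLDL replicate 1); these calls held in 8 and 4 of the 12 fits. Gm5150 and Sirpb1a belong to a family of similar signal-regulatory protein genes, so their counts are uncertain.

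In which medium the genotypes differed varied among the called genes. The difference of CD36 KO from WT cells passed the test under oxLDL and not in control medium for 16 positive and 42 negative genes, in both media for 19 and 21, and in control medium alone for 3 and 8. Over all tested genes, 21.6% differed between the genotypes under oxLDL and 11.2% in control medium. The counts without WT oxLDL replicate 1 were 120 and 517 under oxLDL alone, 82 and 275 in both media and 56 and 105 in control medium alone, of 259 positive and 899 negative genes, with 37.3% of all genes differing under oxLDL and 29.3% in control medium. The share of positive genes that differed in control medium alone was then 21.6%, against 7.9% with 12 libraries. Timd4, the phosphatidylserine receptor of resident peritoneal macrophages, is an example of the last kind. It had 6.82, 7.05 and 10.3 CPM in CD36 KO cells with oxLDL and 1.1, 1.37 and 1.53 CPM in CD36 KO control cells. Timd4 in WT cells was at 5.04, 5.46 and 6.33 CPM with oxLDL and 0.148, 0.185 and 0.172 CPM in control medium, on few reads in WT control cells. The CD36 KO libraries were just above the WT libraries under oxLDL and well above them in control medium. The genotype difference was 0.52 under oxLDL (edgeR adjusted p = 0.0708) and 2.97 in control medium (edgeR adjusted p = 0.000141), and the interaction was -2.44 ± 0.33 (edgeR adjusted p = 0.00654; -2.53 without WT oxLDL replicate 1). Summed markers of large peritoneal macrophages, Timd4 the 1 called of 7, were 434 to 515 CPM in CD36 KO cells with oxLDL against 580 to 640 in CD36 KO control cells, and 445 to 522 CPM in WT cells with oxLDL against 765 to 794 in WT control cells. Their part in the Timd4 result was not tested. Edn1, the precursor of endothelin-1, had 6.56 to 11.4 CPM in CD36 KO cells with oxLDL against 2.42 to 4.03 in CD36 KO control cells, and 10.5 to 15 CPM in WT cells with oxLDL against 0.370 to 0.658 in WT control cells. Its interaction of -3.21 ± 0.41 (edgeR adjusted p = 0.00483; -3.32 without WT oxLDL replicate 1) was accompanied by a genotype difference of -0.48 under oxLDL (edgeR adjusted p = 0.212) and 2.73 in control medium (edgeR adjusted p = 0.000523). Dgat2, Src, Il4ra and Ch25h, the cholesterol 25-hydroxylase named to show this pattern after its values were seen, also differed in control medium alone.

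Several gene groups held no called gene with 12 libraries. Interferon-stimulated genes had a list median response of 3.63 in CD36 KO cells and 4.69 in WT cells. None of the 28 tested was called, and the median interaction was -0.61, with 26 of 28 below 0 against 57.6% of all tested genes. Without WT oxLDL replicate 1, 12 of the 28 were called, all negative, against 5.4% of all genes. Among them Ifi44, at -2.26 ± 0.46 with 12 libraries (edgeR adjusted p = 0.0637), was -2.52 without that library (edgeR adjusted p = 0.00255), and the guanylate-binding protein gene Gbp2, at -2.05 ± 0.43 (edgeR adjusted p = 0.065), was -2.15 (edgeR adjusted p = 0.0125). The level of Ifi44 was higher in CD36 KO cells in both media. In control medium Ifi44 had 9.88 to 19.0 CPM in CD36 KO cells and 0.838 to 1.53 CPM in WT cells. With oxLDL it had 170 to 278 CPM in CD36 KO cells and 54.2 to 111 CPM in WT cells. In control medium Gbp2 had 109 to 259 CPM in CD36 KO cells and 66.3 to 79.9 CPM in WT cells, and with oxLDL 1027 to 2024 CPM in CD36 KO cells and 2094 to 2739 CPM in WT cells. Ifng, the only tested gene of the interferon list, had 1.22 to 4.59 CPM in CD36 KO cells with oxLDL and 4.52 to 8.83 CPM in WT cells with oxLDL, and was at or near 0 in both control groups.

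None of 22 cell cycle genes was called with 12 libraries, 20 were above 0 with a median of 0.40, and 3 were called without WT oxLDL replicate 1, all positive, against 1.56% of all genes. Rrm2, a subunit of ribonucleotide reductase, had 18.2, 16.4 and 14.7 CPM in CD36 KO cells with oxLDL and 14.8, 22.5 and 18.1 CPM in CD36 KO control cells. Rrm2 in WT cells was at 4.8, 6.15 and 7.24 CPM with oxLDL and 17.1, 16.2 and 13.6 CPM in control medium. Its interaction was 1.2 ± 0.27 (edgeR adjusted p = 0.0875) with 12 libraries and 1.05 without WT oxLDL replicate 1 (edgeR adjusted p = 0.0154). The WT libraries with oxLDL were below all others for this gene. In the nuclear-encoded respiratory chain 28 of 29 genes were below 0 with a median of -0.27 over 12 libraries, and 9 of 29 were below 0 with a median of 0.06 without WT oxLDL replicate 1. No gene of that list was called either way.

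For the counts without WT oxLDL replicate 1 that follow, the shares over all genes in that fit were 1.56% positive and 5.4% negative, and several lists with 1 or 2 calls lie near them. LXR targets had no call with 12 libraries and 4 without WT oxLDL replicate 1, all negative, among them the cholesterol exporter Abcg1 at -0.75 (edgeR adjusted p = 0.0128) and the lipogenic regulator Srebf1 at -0.51 (edgeR adjusted p = 0.0154). NRF2 targets had none and 3 (1 positive and 2 negative), among them the heme oxygenase gene Hmox1 at -0.51 (edgeR adjusted p = 0.0152). SREBP2 targets of cholesterol synthesis had none of 25 and then 1, Sc5d, and genes of the unfolded protein and integrated stress responses had none of 20 in either fit. Scavenger receptors and lectins had none of 21 with 12 libraries and 3 positive and 3 negative with 11: Colec12 and both identifiers of Clec7a positive, and Cd36, Msr1 and Marco negative. AP-1 and other immediate-early genes had none of 21 with 12 libraries and 3 positive and 4 negative with 11. Glycolysis and HIF1 targets had none of 22, then 4 positive and 1 negative; matrix metalloproteinases and their inhibitors none of 14, then 1 and 4; lysosome and autophagy genes none of 23, then 1 and 1. Resident macrophage identity genes had 1 negative call of 17, Timd4, and 4 negative without WT oxLDL replicate 1; arginine and polyamine genes had 1 of 14, Arg1, and 3 negative.

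**Figure D3:**
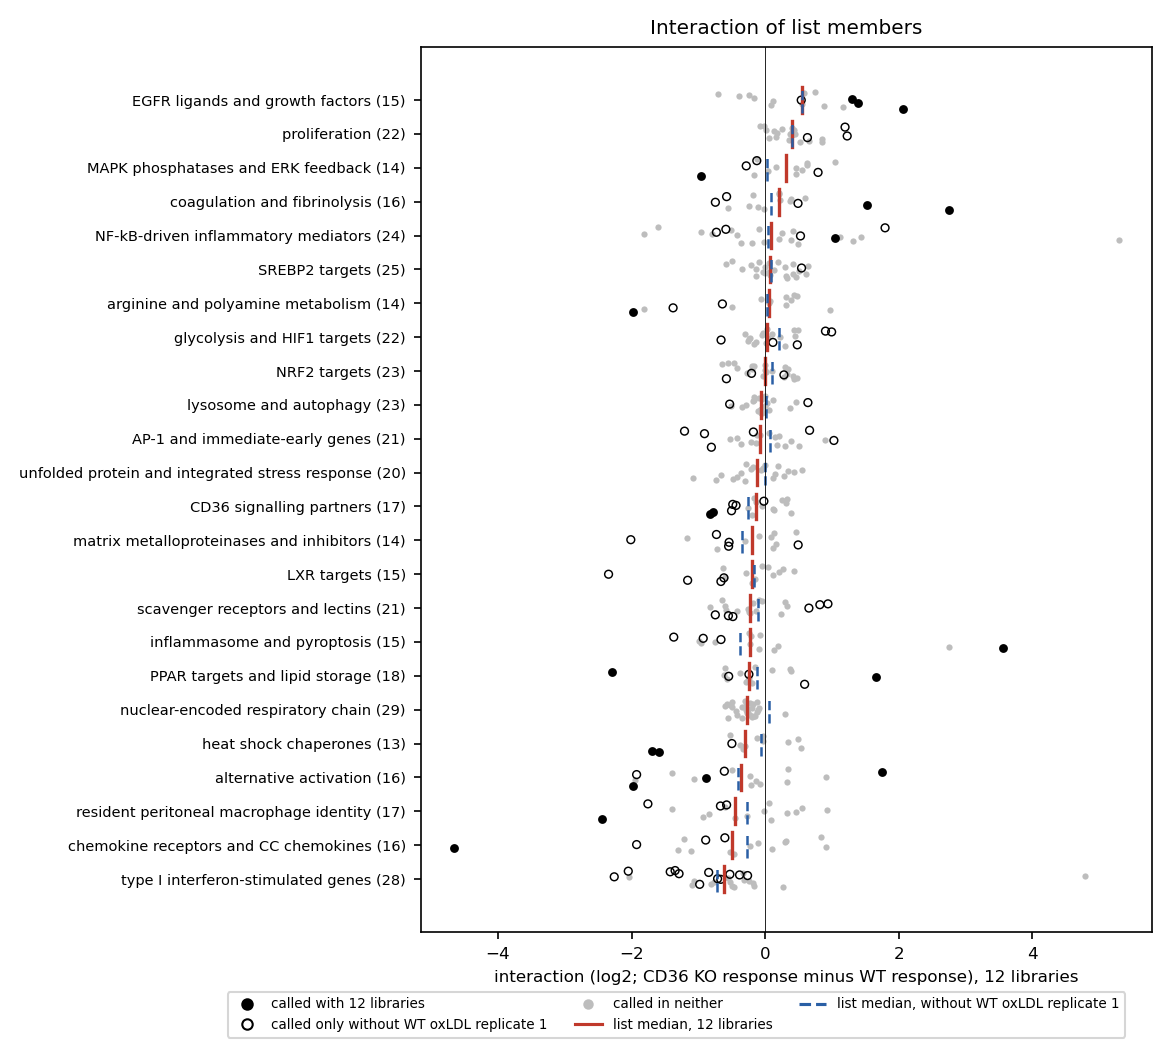
Interaction (log2, x axis) of every tested member of 24 gene lists with 12 libraries, 1 row per list with its number of tested members; black points were called with 12 libraries, open points only without WT oxLDL replicate 1, and red and blue dashes mark the medians with 12 and with 11 libraries. The growth factor list has the highest median, 0.55, and the interferon-stimulated genes the lowest, -0.61. The respiratory chain median is among those that move across 0 without that library, in its case to 0.06.

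Leaving out WT oxLDL replicate 1 lowered the common biological coefficient of variation to 0.107, against 0.213 with all 12 libraries. The calls it added were weighted to the negative side: among genes tested in both fits, 826 negative and 220 positive genes were called only without it, and their median standard error fell to 0.126 and 0.144 without that library, against 0.265 and 0.241 with it. By the smallest adjusted p, the negative ones included Maf, a transcription factor of tissue macrophages, Cd38, an enzyme that consumes NAD, the proteoglycan gene Vcan and Xdh, xanthine dehydrogenase. Maf had 41.2, 43.5 and 40.0 CPM in CD36 KO cells with oxLDL and 98.3, 121 and 106 CPM in CD36 KO control cells. Maf in WT cells was at 65.1, 125 and 127 CPM with oxLDL and 132, 129 and 118 CPM in control medium. WT oxLDL replicate 1 lay nearer the CD36 KO libraries with oxLDL than the other WT libraries with oxLDL did, and the interaction was -1.13 ± 0.30 with it (edgeR adjusted p = 0.154) and -1.39 without it (edgeR adjusted p = 9.06e-05). Cd38 had 391 to 439 CPM in CD36 KO cells with oxLDL and 425, 893 and 975 CPM in WT cells with oxLDL. The positive ones included Slpi, a secreted protease inhibitor, at 155 to 194 CPM in CD36 KO cells with oxLDL and 298, 106 and 106 CPM in WT cells with oxLDL. Slpi moved to 0.92 without that library (edgeR adjusted p = 0.00127), against 0.25 ± 0.46 with it (edgeR adjusted p = 0.902).

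**Figure D4:**
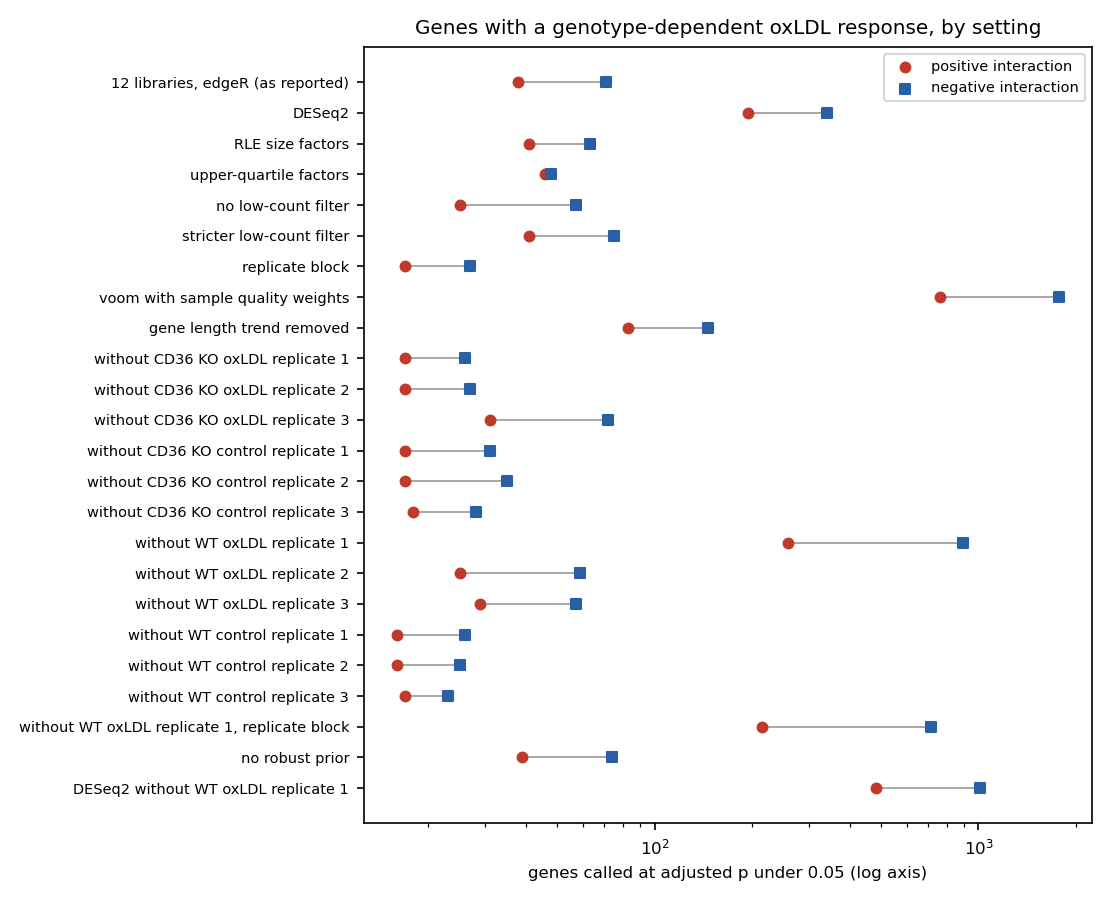
Number of genes called in the interaction (x axis, log scale) under each processing setting (rows), positive calls as circles and negative calls as squares. Leaving out WT oxLDL replicate 1 gives 259 positive and 899 negative calls, against 38 and 71 with 12 libraries, and negative calls outnumber positive ones in every row.

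All 109 genes kept their sign in all 12 fits that each left out 1 library, and 39 stayed called in all 12. The number called was 40 to 52 when any 1 of the 3 CD36 KO control or 3 WT control libraries, or CD36 KO oxLDL replicate 1 or 2, was left out, 103 without CD36 KO oxLDL replicate 3, and 84 and 86 without WT oxLDL replicates 2 and 3. All 38 positive and 70 of the 71 negative genes were protein-coding, against 82.7% of tested genes. Their median lengths were 3688 and 3931 bases, against 3273. None lay within 10 Mb of Cd36, where 84 tested genes lie. With 0.669% of all tested genes called, so few genes could not show a lower share. In the authors' deposited table, which has no interaction test, 108 of the 109 genes were present, and the difference between its 2 oxLDL responses had the same sign as here for all 108. That table was made from the same libraries, and its differences lay within 0.008 of the interactions here. The shared sign is therefore a check of the arithmetic and no independent support.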

How the data were processed

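RNA-seq was made from total RNA of 12 mouse peritoneal macrophage libraries in 4 groups of 3. The whole-number counts per gene were deposited by the authors in 1 table with gene lengths; per the submitters' processing notes, mm10 and FastQC were used, and the sources used here do not state the aligner, counter, annotation or strand setting. Without strand, reads of a gene and of an overlapping antisense gene cannot be told apart. The log2 fold changes and the false discovery rate (FDR, an adjusted p-value) of 1 joint test per gene came from the authors' deposited table; they were used only for the check of direction. The deposited RPKM columns and pairwise tables were not used, and 0 value columns were unmapped.

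Counts were filtered with filterByExpr (minimum count 10, minimum total 15), scaled by TMM and fitted over 4 groups with edgeR 4.0.16 (glmQLFit with a robust prior, glmQLFTest) in R 4.3.3. The Benjamini-Hochberg adjusted p was taken over all tested genes with a threshold of 0.05, and the standard error is the log2 value divided by the square root of F. The interaction test was tested on simulated data. Alternatives were DESeq2 1.42.0, limma 3.58.1 (voom with sample quality weights), other scaling, other filters, a replicate block, removal of a gene length trend and leaving out each library; a fit with no robust prior and DESeq2 without WT oxLDL replicate 1 were chosen after seeing the data. Low counts were stabilised with a prior count of 2 on the log2 CPM scale for correlations between libraries.

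The genes and lists were chosen with earlier results of these data known. Named were the 15 genes with the smallest adjusted p in each direction, the 10 largest interactions in each direction among called genes with a mean of at least 1 CPM in a group and 1 sign in all 12 fits that left out a library, called genes with opposite responses, the called members of each gene list (or the 2 with the smallest p), and 10 genes in each direction called only without WT oxLDL replicate 1. Genes named beyond this rule were chosen after their values were seen. Clec7a has 2 identifiers, so 20 scavenger receptor symbols gave 21 tested rows. Exon overlaps and spans came from GENCODE M21 on GRCm38, which matched 16145 of 16281 tested genes. The result of 1 marker list is not reported here.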

Additional observations from a re-analysis of the deposited data

Results flagged for a closer look

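Each of the following genes was singled out because the test of the difference between the genotypes' oxLDL responses, edgeR's interaction term, passed the threshold; values are log2 interactions, CD36 KO response minus WT response. Among genes that fell in both genotypes and more so in WT cells were Nlrp1b at 3.55, Galnt9 at 2.93, Rasgrp3 at 2.35, Smpd3 at 2.06, Chst3 at 2.0, Irf4 at 1.75, Fam198b at 1.55, Plau at 1.52 and Vegfa at 1.39. A fall that passed the test in WT cells alone was seen for Nxpe4 at 2.48, Nes at 2.30, Il1rl1 at 2.09 and Hmga2 at 1.97. Genes that rose in CD36 KO cells alone, or more than in WT cells, were F3 at 2.74, Hbegf at 2.06, Lrrc32 at 1.68, Angptl4 at 1.65, Layn at 1.47 and Cxcl2 at 1.05. Opposite responses with a positive interaction were seen for Rgs16 at 1.88, Pdgfb at 1.29 and Plk2 at 0.94. Genes that rose more in WT cells were Ccl12 at -4.66, Edn1 at -3.21, Gm15987 at -3.05, Cav1 at -2.76, Lipg at -2.67, Clic5 at -2.47, Timd4 at -2.44, Dgat2 at -2.30, Slc13a3 at -2.08, Slco3a1 at -1.96, Trim30b at -1.87, Hspa1b at -1.70, Fpr1 at -1.63, Hspa1a at -1.60, Tgfbi at -1.59, Pou2f2 at -1.19, Il4ra at -0.88, Lyn at -0.83 and Src at -0.79. A rise that passed the test in WT cells alone was seen for 2310014L17Rik at -5.09, Gm14085 at -2.34, I830077J02Rik at -2.07 and Dusp1 at -0.96. Larger falls in CD36 KO cells, or falls there alone, were seen for Ifitm6 at -2.35, Nxpe5 at -1.67 and C3ar1 at -1.47. Opposite responses with a negative interaction were seen for Arg1 at -1.97 and Sfxn5 at -0.95. All 50 genes kept their sign in all 12 fits that left out 1 library, and 32 stayed called in all 12. Keeping the sign was a condition for the genes named by p or size, which all 109 called genes met.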

How the results depend on the processing

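No called gene named here changed direction under any alternative run. Several list medians, most of them near 0, did change sign. Of 23 alternatives, this was so in 13 for AP-1 and immediate-early genes and 11 for NRF2 targets. It was so in 4 for lysosome and autophagy genes and 3 for the respiratory chain. The stress response list and the arginine list each changed sign in 2, and glycolysis and HIF1 targets in 1. The other list medians kept their sign. The interaction, with 109 calls, gave 535 with DESeq2, 1494 with DESeq2 without WT oxLDL replicate 1, 2533 with voom and sample quality weights, 229 with the gene length trend removed, and 40 to 1158 when 1 library was left out; these fits shared at least 40 of the 109 calls, all with the same sign. Other scaling, other filters and no robust prior gave 82 to 116. The labels do not say whether same-numbered libraries are paired. Of 18 same-numbered pairs, 2 correlated above 0.1 in their deviations from the group mean (range -0.399 to 0.357). Of 12 libraries, 2 correlated best with their own number. With so few libraries per group these values do not settle whether the numbers pair the libraries. With the replicate block 44 genes were called, all among the 109, and 930 with the block and without WT oxLDL replicate 1. Of the 50 called genes named by the stated rule, 32 were called in all 12 fits that left out 1 library. Called genes named beyond that rule are not in this count. The oxLDL response in CD36 KO cells (4454 calls) gave 8378 with voom, 4073 with the block and 5023 with DESeq2 on all 12 libraries. Without WT oxLDL replicate 1 it gave 8361 with the block and 8128 with DESeq2, and 3397 to 8315 with 1 library left out. The response in WT cells (5980 calls) gave 10244 with voom. CD36 KO against WT cells under oxLDL (3512 calls) gave 7984 with voom, 2947 with the block and 4628 with DESeq2 on all 12 libraries. Without WT oxLDL replicate 1 it gave 5821 with the block and 6126 with DESeq2, and 2068 to 6205 with 1 library left out. In control medium (1823 calls) the counts on all 12 libraries were 7248 with voom, 1521 with the block and 2586 with DESeq2. Without WT oxLDL replicate 1 they were 4845 with the block and 5334 with DESeq2, and 853 to 4870 with 1 library left out. Library totals of 35257762 or more leave genes under 1 CPM with few reads. The cause of the gain in calls without WT oxLDL replicate 1 was not tested, beyond the lower coefficient of variation given above.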

Other observations

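The called genes differed in level: the median over genes of the mean CPM was 8.93 for the 38 positive genes and 46.5 for the 71 negative genes, against 12.2 for all tested genes. By chromosome, the share called ran up to 1.47% on chromosome 17 (12 of 818 tested genes) and 1.39% on chromosome 7 (17 of 1222), against 0.669% over all, and no tested gene of chromosome 16 was called. The 12 on chromosome 17 include the near-identical pair Hspa1a and Hspa1b and the overlapping pair Cmtr1 and Gm28043, whose counts are not independent.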
